A study of Mus musculus with 20 samples.

Results

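Genes that mark the stem cells at the base of the intestinal crypt were followed in the colon of mice given azoxymethane and dextran sulphate sodium (AOM/DSS), a chemical model of colitis-associated colorectal cancer, with or without Pien Tze Huang (PZH), a formulation of traditional Chinese medicine. The group held 10 genes chosen by name, Lgr5, Ascl2, Smoc2, Olfm4, Prom1, Lrig1, Ephb2, Ephb3, Cdca7 and Vangl2, out of 32991 genes that could be assembled from the annotated transcripts. RNA sequencing covered 20 male C57BL/6 mice in 4 groups of 5 mice. Control mice received distilled water by gavage for 91 days, and PZH mice received 250 mg/kg/d of PZH over the same days. AOM/DSS mice, labelled Model, received water by gavage, 1 intraperitoneal injection of 12.5 mg/kg AOM and 4 cycles of 5 days of 2% DSS in the drinking water. PZH + AOM/DSS mice, labelled Model + PZH, received the carcinogen, the DSS cycles and PZH, the latter from the first day. All mice were therefore wild type, the tumours were chemically induced, and the samples were colon tissue whose cell types were sequenced together. How much tumour each sequenced piece held is not given.

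As background, the crypt base columnar cell divides throughout life and supplies the cells of the colonic surface. It is kept by Wnt signalling: R-spondins bind Lgr5 and its relatives and thereby remove the ligases Rnf43 and Znrf3, which otherwise take the Wnt receptors off the membrane, while Ascl2 is the transcription factor that holds the stem cell programme. EphB receptors, which are high at the crypt base, and their ephrin-B ligands, which are high near the surface, keep cells at their level of the crypt, and adenomas that form after loss of the Wnt brake carry many of the same genes.

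Each gene's level was the sum of the FPKM values (fragments scaled by transcript length and by the library's total) of its annotated transcripts, so that levels can be set side by side between genes per length. An estimated 15.33 to 19.44 M fragments stood behind each mouse. Groups were compared with limma on log2(FPKM + 1), a scale that understates the change of genes near 1 FPKM, and P values were adjusted by Benjamini-Hochberg over every gene tested. The samples are labelled colon, although the protocol text of the labels names an artery as the dissected tissue. The colonic transcription factor gene Cdx1 was measured at 110 to 249 FPKM and the colonocyte transporter gene Slc26a3 at 38.4 to 536 FPKM in all 20 mice. Epcam, a gene of every epithelial cell, had no FPKM in any of the 5 Control mice and up to 865 FPKM elsewhere, so a value of 0 in these files can be a failed estimate. Control mice 17 and 50 stood apart by their squamous epithelium genes, with Krt13 at 125 and 126 FPKM against 0.527 FPKM or less in the other 3. PZH + AOM/DSS mouse 35 stood apart from its group by its crypt base genes and by genes of other cell types, as described with the results.

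The windows of 250 bases before the RefSeq gene start (GRCm38.p6) were read for 8 of the genes, in 9 windows, to see which binding letters the genes share. The letters CTTTG, the core of the site of the Wnt effectors TCF and LEF, were searched on both strands and were in 0 of the 9 windows, against 48.6% of 32851 windows of all genes, and the longer letters CTTTGAA or CTTTGAT or CTTTGTA or CTTTGTT, which contain the core, were also in 0 of 9, against 14.8%. CANNTG, the E-box that Ascl2 and its relatives recognise, reads the same on both strands and was in 6 of the 9 windows, against 66.2% of all windows. Lgr5 and Smoc2 had no window, and Prom1 had 2. The 9 windows held 50.8 to 73.6% G and C, against a median of 52.4% over all windows. The part of base composition in these counts was not tested. The windows of 4 genes are shown because the first 2 genes rose in the AOM/DSS mice and the other two, the ephrin receptors, did not pass the test. Each is given 5′ to 3′ on the strand of its gene, with CANNTG in capitals and without bases that lie in an annotated exon, at chr7:142969265-142969514 (minus strand), chr2:72475969-72476158 (plus), chr4:136836013-136836262 (minus) and chr16:21204545-21204754 (plus).
Ascl2: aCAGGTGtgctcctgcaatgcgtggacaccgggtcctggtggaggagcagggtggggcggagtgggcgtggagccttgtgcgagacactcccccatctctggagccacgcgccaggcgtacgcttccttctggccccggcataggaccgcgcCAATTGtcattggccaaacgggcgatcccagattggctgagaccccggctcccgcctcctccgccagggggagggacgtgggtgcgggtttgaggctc
Cdca7: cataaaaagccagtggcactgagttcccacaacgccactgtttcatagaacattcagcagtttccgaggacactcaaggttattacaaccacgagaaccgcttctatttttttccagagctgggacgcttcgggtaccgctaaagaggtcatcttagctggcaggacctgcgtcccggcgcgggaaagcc
Ephb2: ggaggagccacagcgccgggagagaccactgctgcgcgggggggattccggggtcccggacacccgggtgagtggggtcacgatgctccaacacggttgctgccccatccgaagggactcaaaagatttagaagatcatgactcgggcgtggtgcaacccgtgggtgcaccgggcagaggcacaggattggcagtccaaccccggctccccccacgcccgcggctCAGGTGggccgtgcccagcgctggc
Ephb3: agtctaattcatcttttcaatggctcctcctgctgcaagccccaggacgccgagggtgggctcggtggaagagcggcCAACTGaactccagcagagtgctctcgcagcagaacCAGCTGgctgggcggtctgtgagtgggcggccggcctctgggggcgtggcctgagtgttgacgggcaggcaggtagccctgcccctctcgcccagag
In the stretches printed, Ascl2 and Ephb3 each held 2 E-boxes, Ephb2 held 1 and Cdca7 held 0. A match is a description of letters and not a bound site.

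In AOM/DSS mice most crypt base stem cell genes were higher than in Control mice. Of the 10 genes, 9 passed the filter on low values (at least 0.5 FPKM in 5 of the 10 mice compared), and 6 of these 9 rose at an adjusted P under 0.05, namely Lgr5, Vangl2, Smoc2, Ascl2, Cdca7 and Prom1, while 16.4% of the 15812 genes tested were called higher and 7.23% lower. Ephb3, Ephb2 and Lrig1 did not pass. The median log2 difference of the 9 genes was 0.95, against 0.09 over all genes tested. By the study's own criteria, a fold change above 2 with an unadjusted P under 0.05, 4 of the 9 were higher, Lgr5, Ascl2, Smoc2 and Vangl2, against 5.85% of all genes. The paper applied these cut-offs to transcripts with DESeq, whereas here limma was used, on gene sums unless transcripts are named. The counts are therefore not comparable with the paper's. The values of 5 tested genes did not overlap between the groups, a pattern that 13% of all genes showed in this direction. In a tissue sequenced as a whole, more cells of a type and more RNA per cell cannot be told apart.

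**Figure D1:**
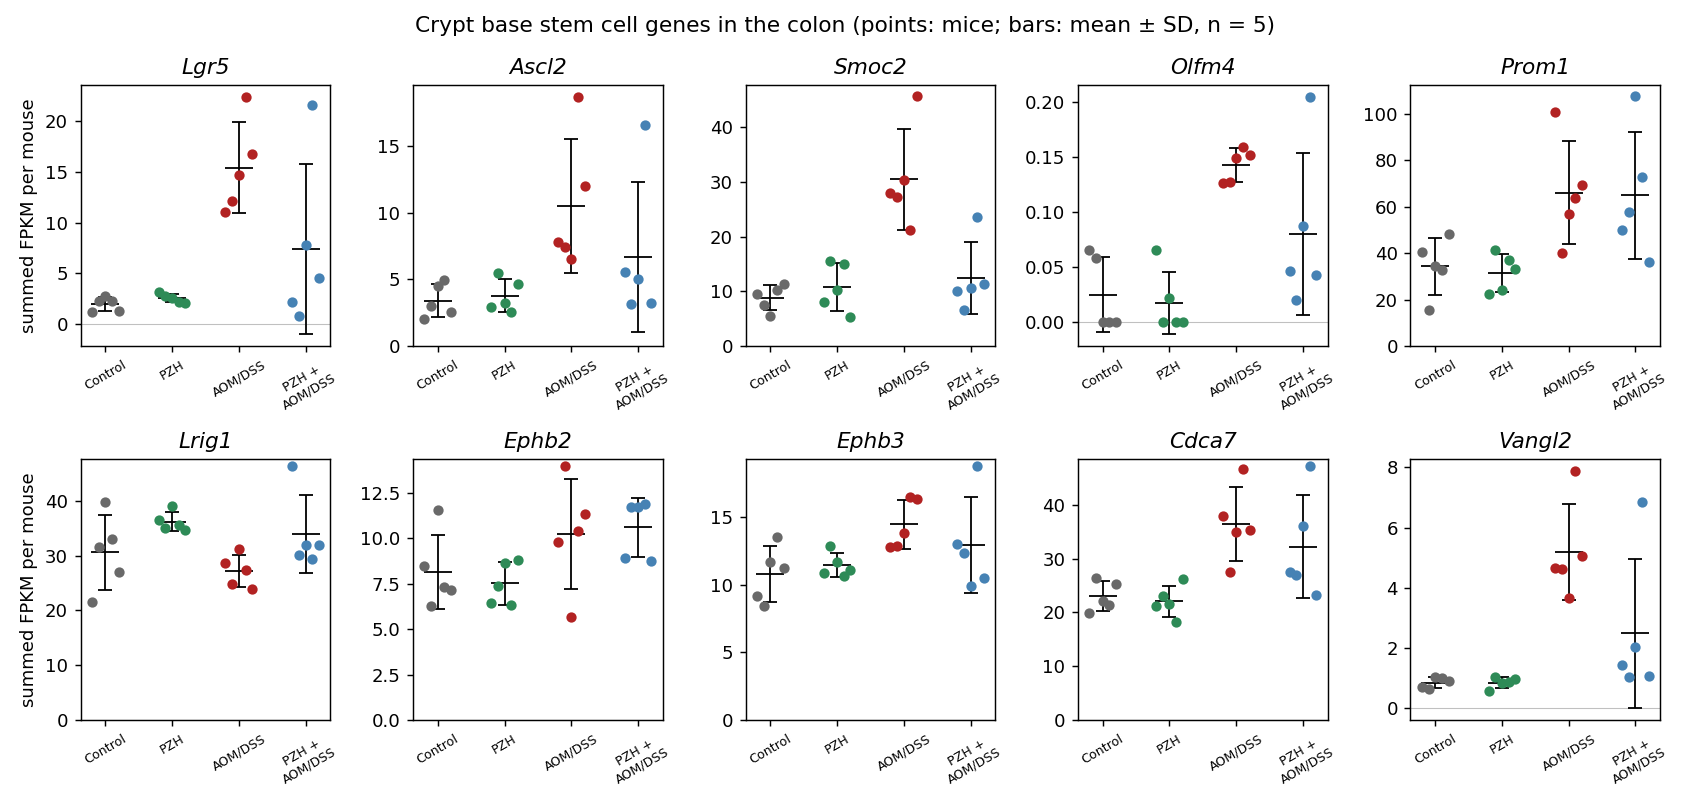
Summed FPKM (vertical axes, linear, 1 panel per gene) of the 10 genes in each of the 20 mice of the 4 groups; points are mice and bars show the mean ± SD of 5 mice. The AOM/DSS mice sit above all Control mice for Lgr5, Ascl2, Smoc2, Cdca7 and Vangl2, and the highest PZH + AOM/DSS point for each of these genes is mouse 35.

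Lgr5, the R-spondin receptor that defines the crypt base columnar cell (mm10 chr10:115450311-115587780, minus strand), measured 1.19, 2.26, 2.79, 2.27 and 1.3 FPKM in the Control mice and 11.1, 12.1, 14.7, 22.4 and 16.8 FPKM in the AOM/DSS mice. Every AOM/DSS mouse was above every Control mouse, and the means were 1.96 ± 0.689 and 15.4 ± 4.52 FPKM (SD, n = 5), a ratio of 7.87. The log2 difference was 2.46 ± 0.22 (SE), with an adjusted P of 3.46e-05 (limma).

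Around Lgr5, the list of R-spondin signalling genes had 5 of 8 genes above the filter, of which 3 were called higher and 1 lower in AOM/DSS mice. One of the 3, Lgr6, was below 0.5 FPKM in every Control mouse and passed the filter through the AOM/DSS mice alone, so it had to be higher there, and 2 of the other 4 were called higher. Rnf43, a ligase that removes Wnt receptors, rose from 6.68 to 10.8 FPKM in Control mice to 22.2 to 41.5 FPKM, a log2 difference of 1.78 (adjusted P = 8.23e-05, limma). Lgr6, the closest relative of Lgr5, stood at 0.00771 to 0.0791 FPKM in Control mice and at 1.25 to 6.41 FPKM in AOM/DSS mice, given here as levels. Znrf3, the partner ligase of Rnf43, was called higher as well, with a log2 difference of 0.90 and an adjusted P of 0.0323 (limma), although AOM/DSS mouse 33, at 0.586 FPKM, lay within the Control range. Lgr4, the receptor that is spread more widely along the crypt, was the gene called lower, at 35.2 to 47.9 FPKM against 41.7 to 61.7 FPKM. Of the ligands, Rspo3 was the only one above the filter, and its log2 difference was -0.20 (adjusted P = 0.48, limma). Rspo1 stayed at or below 1.25 FPKM, Rspo2 at or below 0.183 FPKM and Rspo4 at or below 0.325 FPKM in every mouse of the series.

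Ascl2, the basic helix-loop-helix factor of the stem cell programme (chr7:142966829-142969264, minus strand), measured 2.03, 2.98, 4.47, 4.95 and 2.57 FPKM in the Control mice and 7.80, 7.39, 6.55, 18.7 and 12.0 FPKM in the AOM/DSS mice. Its groups did not overlap either, and mouse 44 was the highest for Ascl2 as for Lgr5. The log2 difference was 1.33 ± 0.29 (SE), with an adjusted P of 0.00747 (limma), and the ratio of the means was 3.08.

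Smoc2 encodes a secreted matricellular protein found in the Lgr5+ cell, and its gene lies at chr17:14279506-14404790 (plus strand). Only 1 of its 7 annotated transcripts was listed. The values of Smoc2 were 9.51, 7.49, 5.58, 10.2 and 11.4 FPKM in the Control mice and 27.9, 27.2, 30.4, 21.1 and 45.7 FPKM in the AOM/DSS mice. The log2 difference was 1.67 ± 0.22 (SE), with an adjusted P of 4.66e-04 (limma) and no overlap. Within the AOM/DSS group its order differed from that of Lgr5 and Ascl2, since mouse 44 was the lowest for Smoc2.

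Olfm4, a secreted glycoprotein of crypt base cells that in mice is best known from the small intestine, was barely detected in this colon. Only 1 of its 3 annotated transcripts was in the files, and its highest level was 0.204 FPKM, which corresponds to an estimated 10 fragments, so it was not tested. It was listed at 0.0654, 0.0586, 0, 0 and 0 FPKM in the Control mice and at 0.126, 0.127, 0.149, 0.159 and 0.152 FPKM in the AOM/DSS mice. The AOM/DSS values were all above the Control values, but each stood for 8 estimated fragments or fewer, against a floor of 3 fragments or 0.0551 to 0.0699 FPKM, and no fold is given.

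Prom1 (CD133), a membrane glycoprotein of stem and other epithelial cells, was the most abundant of the 10 genes in Control mice, at 40.4, 15.3, 34.7, 32.6 and 48.3 FPKM. The AOM/DSS mice measured 101, 39.9, 56.7, 63.6 and 69.4 FPKM, and the lowest of them, mouse 30, lay inside the Control range. The log2 difference of 0.95 ± 0.31 (SE) passed narrowly, with an adjusted P of 0.0444 (limma), and the call was lost on leaving out any of 8 of the 10 mice, Control mice 17, 37, 41 and 48 and AOM/DSS mice 23, 33, 44 and 52, with adjusted P values up to 0.0988.

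Lrig1, a brake on ErbB receptors that marks a more quiescent stem cell, did not pass the test. It measured 21.5, 31.6, 39.9, 33 and 27.1 FPKM in the Control mice and 28.6, 24.9, 31.2, 27.5 and 24 FPKM in the AOM/DSS mice, all of the latter within the Control range. The log2 difference was -0.14, with a 95% interval from -0.48 to 0.20 (adjusted P = 0.56, limma). Among 5 tested relatives and ErbB receptors, 0 were called higher and 1 lower, which was Lrig3, with a log2 difference of -1.07 (adjusted P = 0.00404, limma).

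Neither of the ephrin receptor genes passed the test. Ephb2 measured 8.47, 6.25, 11.6, 7.30 and 7.17 FPKM in the Control mice and 9.80, 14, 5.64, 10.4 and 11.4 FPKM in the AOM/DSS mice, and the AOM/DSS group held both the highest and the lowest of these 10 values. Its log2 difference was 0.27, with a 95% interval from -0.21 to 0.76 (adjusted P = 0.413, limma). Ephb3 measured 9.13, 8.43, 11.7, 13.5 and 11.2 FPKM against 12.8, 12.9, 13.8, 16.5 and 16.3 FPKM, a log2 difference of 0.40 with a 95% interval from 0.09 to 0.71 and an adjusted P of 0.0647 (limma). Control mouse 48 was the only Control mouse above the lowest AOM/DSS value for Ephb3, and without it the gene was called higher (adjusted P = 0.0382, limma).

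Other members of the ephrin system moved in both directions, with 2 genes called higher and 1 lower of 4 tested. Ephb4, the receptor known from vessels and epithelium, rose from 13 to 21 FPKM in Control mice to 20.4 to 36.8 FPKM (adjusted P = 0.0159, limma). The kinase-inactive receptor gene Ephb6 rose as well, with a log2 difference of 1.57 (adjusted P = 0.0221, limma). The ligand gene Efnb1 fell by 0.44 on the log2 scale, from 30.5 to 47.1 FPKM to 24.2 to 28.7 FPKM (adjusted P = 0.038, limma). Efnb2, a second ligand gene, had a log2 difference of -0.41 that did not pass (adjusted P = 0.0618, limma).

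Cdca7, which encodes a zinc finger protein that works with the chromatin remodeller Hells in keeping DNA methylation, measured 19.9, 26.4, 22.1, 21.4 and 25.4 FPKM in the Control mice and 38.0, 27.5, 35, 46.7 and 35.4 FPKM in the AOM/DSS mice. The groups did not overlap, and the log2 difference was 0.63 ± 0.14 (SE), with an adjusted P of 0.00861 (limma). Hells belongs to the list of 16 proliferation genes, of which 8 were called higher and 0 lower, led by the replication helicase genes Mcm3, Mcm2 and Mcm4 with log2 differences of 1.01, 0.87 and 0.87.

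Vangl2, a core protein of planar cell polarity and of Wnt signalling without beta-catenin, was the second steepest by ratio of means, at 6.06. It measured 0.695, 0.628, 1.04, 1.00 and 0.916 FPKM in the Control mice and 4.67, 4.64, 3.67, 7.89 and 5.07 FPKM in the AOM/DSS mice, with no overlap. The log2 difference was 1.71 ± 0.17 (SE), with an adjusted P of 7.49e-05 (limma). Of the 8 other planar polarity genes tested, 3 were called higher and 0 lower. They were Ptk7, a pseudokinase receptor, from 6.31 to 8.78 FPKM to 17.3 to 27.1 FPKM, the paralogue Vangl1 with a log2 difference of 0.72, and the receptor gene Fzd6 with a log2 difference of 0.51.

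Other crypt base genes rose as well. Of 10 tested, 7 were called higher and 1, Myb, lower. Sp5, one of the 7, passed the filter only through the AOM/DSS mice, and without it 6 of 9 were called higher, led by Wnt feedback genes. This transcription factor gene, which Wnt switches on, stood at 0.0261 to 0.175 FPKM in Control mice and at 16.3 to 30.3 FPKM in AOM/DSS mice. The feedback inhibitor genes Nkd1 and Axin2 had log2 differences of 4.00 and 2.12. Of 4 reserve stem cell genes, Mex3a and Bmi1 were called higher, with log2 differences of 2.48 and 0.67, and of 10 genes of regenerating epithelium 4 were higher, among them Clu and Il33 with 2.69 and 1.69.

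Marker genes of several cell types differed at the same time. All 7 smooth muscle genes were called lower, with summed levels of 1019 to 1782 FPKM against 2294 to 5279 FPKM in Control mice. PZH mice without AOM/DSS were also low, with sums of 1076 to 2475 FPKM. All 7 genes were lower there than in Control mice, 0 at an adjusted P under 0.05. At an unadjusted P under 0.05, 5 of them were lower (limma), against 4.5% of all genes. With AOM/DSS, 5 of 8 colonocyte genes fell, led by Slc26a3, Aqp8 and Car1. Of 6 Paneth and deep crypt secretory cell genes, 4 were called higher, or 3 of 5 without Mmp7, which passed the filter only through the AOM/DSS mice. Mmp7 measured 342, 191, 234, 598 and 498 FPKM in the AOM/DSS mice and was listed at 0 throughout the Control group, and Lyz1 rose from 1.66 to 21.5 FPKM to 681 FPKM or more. Of 8 immune cell genes 4 rose, led by S100a9, S100a8 and Itgam, and of 12 fibroblast and niche genes 4 rose and 2 fell, led by Grem1, Foxl1 and, downward, Lum. Of 9 epithelial genes tested, 0 rose and 2, Krt19 and Cdx1, fell, while 0 of 8 goblet cell genes and 0 of 4 squamous genes were called. The squamous test met a split Control group. Krt13 measured 125 and 126 FPKM in Control mice 17 and 50 and 0.527 FPKM or less in the other Control mice. All AOM/DSS mice lay between them, at 3.06 to 11.5 FPKM. The part of these shifts in the crypt base values was not tested. Relative to the epithelial list, 1 of the 6 genes, Lgr5, was called, where 2.12% of all genes were called in either direction. Epcam and Krt8 were removed from the list after their erratic values were seen. Without them the 6 genes and Ephb3 were called (adjusted P = 0.0216 for Ephb3, limma). In that setting 26.5% of all genes were called, 3766 higher and 430 lower. This shorter list still holds Krt19 and Cdx1, which fell with AOM/DSS. Without Control mice 17 and 50, the same 6 genes were called, with adjusted P values up to 0.0488 (limma), where 17.8% of all genes were called.

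In mice without AOM/DSS, no difference between PZH and Control mice was detectable in these genes. Lgr5 measured 3.11, 2.74, 2.58, 2.15 and 2.08 FPKM in the PZH mice, and Ascl2 measured 2.91, 5.44, 3.22, 2.57 and 4.66 FPKM. Of 9 genes tested, 0 passed an adjusted P under 0.05 and 0 had an unadjusted P under 0.05 (limma), where 0.00645% of 15506 genes were called lower and 0% higher, and 4.34% were higher and 4.5% lower at an unadjusted P under 0.05. The steadiest gene was Vangl2, with a log2 difference of 0.00 and a 95% interval from -0.23 to 0.24. The intervals of the other 8 genes were wider, reaching from -0.40 to 0.82 for Smoc2, so that a change of this size would not have been seen. Lrig1 had the smallest unadjusted p, 0.0934, at 34.7 to 39.1 FPKM in the PZH mice (limma).

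**Figure D2:**
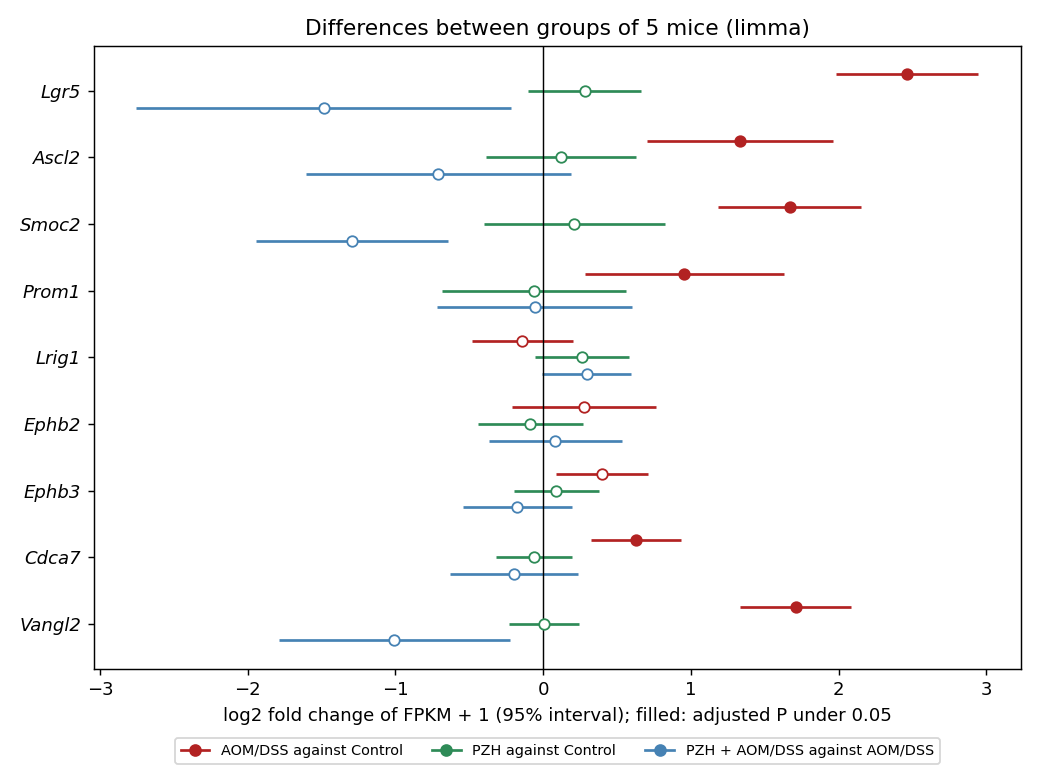
Log2 fold changes of FPKM + 1 (horizontal axis) with 95% intervals for the 9 tested genes (rows) in 3 comparisons of 5 against 5 mice, coloured by comparison; filled points have an adjusted P under 0.05. Filled points occur in AOM/DSS against Control for 6 genes, and the largest of them is Lgr5 at 2.46.

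PZH + AOM/DSS mice had lower mean levels of Lgr5, Smoc2 and Vangl2 than AOM/DSS mice, but none of the 9 genes passed the adjusted test in limma. In this comparison 0.00629% of 15888 genes were called higher and 0% lower, while by the study's criteria 3 of the 9 genes were lower, against 2.01% of all genes. The AOM/DSS mice are the same as in the comparison above, so the values of both comparisons are set side by side and not correlated.

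Lgr5 measured 2.19, 0.726, 7.77, 21.6 and 4.5 FPKM in PZH + AOM/DSS mice 2, 13, 15, 35 and 36. Of these, 4 were below all AOM/DSS mice and mouse 35 was near the top of the AOM/DSS range. The log2 difference was -1.49 ± 0.57 (SE), with an unadjusted p of 0.026 and an adjusted P of 0.379 (limma).

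Smoc2, in the same order of mice, measured 10.03, 6.52, 10.7, 23.6 and 11.4 FPKM, again with only mouse 35 inside the AOM/DSS range. Its log2 difference was -1.30 ± 0.29 (SE), with an unadjusted p of 0.00113 and an adjusted P of 0.356 (limma). Vangl2, with the mice listed as before, measured 1.43, 1.04, 2.04, 6.85 and 1.07 FPKM. Its log2 difference was -1.01 ± 0.35 (SE), with an unadjusted p of 0.0162 and an adjusted P of 0.358 (limma). Ascl2, at 5.55, 3.18, 4.99, 16.6 and 3.23 FPKM, had a log2 difference of -0.71 with a 95% interval from -1.61 to 0.19.

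Prom1, Cdca7 and the genes that had not passed the test with AOM/DSS showed smaller differences. Prom1 measured 50.1, 57.6, 108, 72.9 and 36.2 FPKM in the PZH + AOM/DSS mice, with a log2 difference of -0.06 (95% interval from -0.72 to 0.60) and the highest value in mouse 15 rather than mouse 35. Cdca7 measured 27.5, 27, 36.2, 47.2 and 23.3 FPKM, with a log2 difference of -0.20 (95% interval from -0.63 to 0.24). Lrig1 stood at 29.4 to 46.5 FPKM, with a log2 difference of 0.29 and an unadjusted p of 0.0558 (limma). For Ephb2, at 8.74 to 11.9 FPKM, and Ephb3, at 9.91 to 18.8 FPKM, the 95% intervals ran from -0.37 to 0.54 and from -0.54 to 0.19. Olfm4 was listed at 0.0461, 0.0205, 0.0871, 0.204 and 0.0431 FPKM, with mouse 35 at the top.

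The 5 PZH + AOM/DSS mice did not form a single group in these genes. For the 6 genes that rose with AOM/DSS, the place of each mouse was taken on the log2(FPKM + 1) scale, with the Control mean at 0% and the AOM/DSS mean at 100%. Mouse 35 had a median place of 122% and was at or above the lowest AOM/DSS mouse for 6 of the 6 genes. For all genes called higher with AOM/DSS this share is not given here, so the count cannot be called particular to these genes. Mouse 15 had a median of 53.5% and mouse 2 of 31.7%, while mouse 36 stood at 13.6% and mouse 13 at 3.04%. Mouse 36 reached the AOM/DSS range for 0 of the 6 genes, and mouse 13 did so for Prom1 only.

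**Figure D3:**
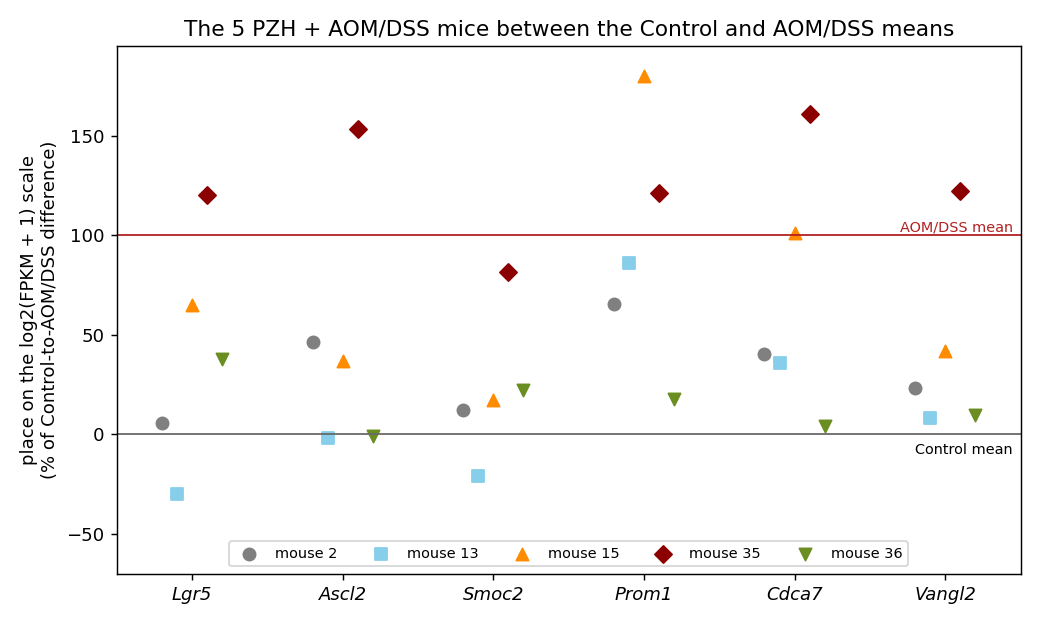
Place of each PZH + AOM/DSS mouse (symbols) on the log2(FPKM + 1) scale, in percent of the difference between the Control mean (0%) and the AOM/DSS mean (100%), for the 6 genes that rose with AOM/DSS. Mouse 35 lies between 81.3% and 161% for every gene, and mouse 15 reaches 180% for Prom1.

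Mouse 35 also stood apart in lists of other genes and cell types. It was at or above the lowest AOM/DSS mouse for 7 of the 7 other crypt base genes that rose, for 3 of 3 R-spondin genes and for 4 of 4 Paneth and deep crypt secretory cell genes. In these lists mouse 2 reached it for 2, 1 and 1 genes, mouse 13 for 1, 1 and 0, mouse 15 for 1, 1 and 1 and mouse 36 for 1, 1 and 0. Sp5 measured 1.13, 0.246, 4.22, 21.2 and 2.71 FPKM and Mmp7 11.7, 5.64, 127, 504 and 31.6 FPKM in mice 2, 13, 15, 35 and 36. Mouse 35 was likewise at or above the lowest AOM/DSS mouse for 4 of 4 immune cell, 4 of 4 fibroblast and niche and 4 of 4 regenerating epithelium genes that rose. Mouse 2 reached it for 1, 0 and 1 of these, mouse 13 for 1, 0 and 0, mouse 15 for 2, 2 and 1 and mouse 36 for 2, 0 and 1. In mouse 35 the colonocyte gene Slc26a3, at 70.3 FPKM, lay within the AOM/DSS range of 38.4 to 126 FPKM. The other 4 mice of its group measured 158 to 323 FPKM. The squamous gene Krt13 measured 12.4 FPKM in mouse 35 and 1.42 to 4.50 FPKM in the other 4 mice. Its AOM/DSS range was 3.06 to 11.5 FPKM. The part of these cell types in the crypt base values of mouse 35 was not tested. Proliferation genes followed another order. Mice 2, 15 and 35 were each at or above the lowest AOM/DSS mouse for 8 of the 8 that rose. The smooth muscle sum was 900 to 2359 FPKM in these 5 mice.

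Without mouse 35, 3 of the 9 genes were called lower in PZH + AOM/DSS mice, where 4.41% of 15639 genes were called lower and 0.761% higher. Smoc2 then had a log2 difference of -1.54 ± 0.22 (SE; adjusted P = 0.0076, limma), Vangl2 of -1.35 ± 0.20 (adjusted P = 0.00871) and Lgr5 of -1.98 ± 0.42 (adjusted P = 0.0307). Ascl2 had a log2 difference of -1.06 and did not pass (adjusted P = 0.0684, limma). Nothing in the labels sets mouse 35 apart, and it was chosen for this comparison after its values were seen.

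**Figure D4:**
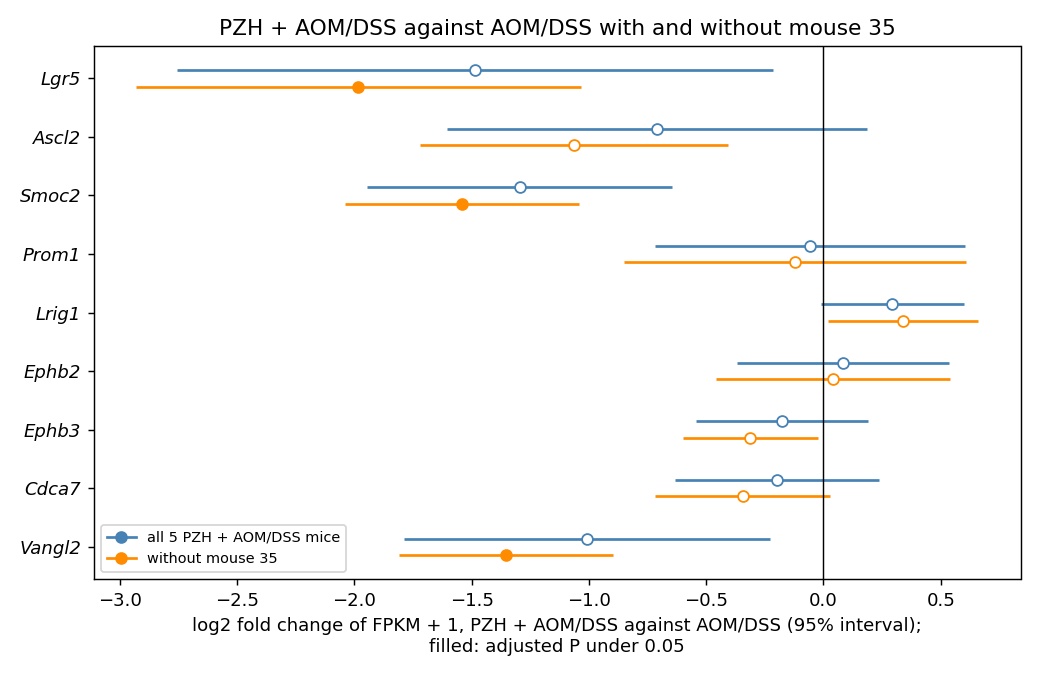
Log2 fold changes of FPKM + 1 with 95% intervals (horizontal axis) for 9 genes (rows), with the AOM/DSS mice as the reference and all 5 or 4 of the PZH + AOM/DSS mice set against them; filled points have an adjusted P under 0.05. Without mouse 35 the points of Lgr5, Smoc2 and Vangl2 are filled, at -1.98, -1.54 and -1.35.

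Whether the difference with PZH was unequal in mice with and without AOM/DSS was tested by the interaction over all 20 mice. Of 9 genes, 0 passed an adjusted P under 0.05 (limma), where 0.0059% of 16936 genes were called in each direction, and Smoc2, Lgr5 and Vangl2 had the smallest unadjusted p values, 0.00211, 0.0118 and 0.0166, with interaction terms of -1.51, -1.77 and -1.01. Without mouse 35 these 3 genes were called, with adjusted P values of 0.0149, 0.0106 and 0.00281 (limma), where 2.49% of genes were called in this direction.

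Between PZH + AOM/DSS mice and mice without AOM/DSS, 0 of the 9 genes were called (limma). Compared with Control mice, where 1.55% of 15616 genes were called higher and 0.871% lower, Prom1 and Cdca7 had unadjusted p values of 0.0199 and 0.0371 (limma) and log2 differences of 0.90 and 0.43. Compared with PZH mice, where 1.74% of 15636 genes were higher and 0.678% lower, Prom1, Ephb2 and Cdca7 had unadjusted p values of 0.00514, 0.00911 and 0.0201 (limma), and Vangl2 was the only gene whose groups did not overlap, against 5% of all genes in this direction. Without mouse 36, Prom1 was called higher than in PZH mice (adjusted P = 0.0485, limma). Without mouse 35, 0 of the 9 genes were called in either comparison. In that setting 0.704% of 15351 genes were called higher and 0.332% lower than in Control mice. Compared with PZH mice, 1.23% of 15409 genes were called higher and 0.435% lower. The log2 difference of Lgr5 was then 0.48 against Control and 0.20 against PZH mice, and that of Smoc2 was 0.13 and -0.083.

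The order of the genes by level changed with AOM/DSS. In Control mice Prom1 (34.3 ± 12.2 FPKM) and Lrig1 (30.6 ± 6.89 FPKM) were highest and did not differ beyond their spread, followed by Cdca7 (23.1 ± 2.74), Ephb3 (10.8 ± 2.06), Smoc2 (8.83 ± 2.3) and Ephb2 (8.15 ± 2.06), the last 3 again within their spread. Ascl2 (3.40 ± 1.25 FPKM), Lgr5 (1.96 ± 0.689 FPKM) and Vangl2 (0.856 ± 0.185 FPKM) came after them, and Olfm4 was last. In AOM/DSS mice Smoc2 moved to rank 3 at 30.5 ± 9.17 FPKM and Lgr5 to rank 5 at 15.4 ± 4.52 FPKM. Lrig1 moved from rank 2 to rank 4 at 27.2 ± 2.90 FPKM, within the spread of Smoc2. The coefficient of variation of Lgr5 was 29.3% in AOM/DSS mice and 114% in PZH + AOM/DSS mice, and that of Vangl2 30.8% and 99.5%. Without mouse 35, the PZH + AOM/DSS values were 80.9% for Lgr5 and 33.3% for Vangl2.

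The files list 55 transcripts of the 10 genes, which show what the sums hold. For AOM/DSS against Control 19 transcripts passed the filter and 6 were called higher, Lgr5-201, Lgr5-202, Smoc2-201, Vangl2-201, Ascl2-201 and Cdca7-201, where 4.75% of 40464 transcripts were called higher. The protein-coding Lgr5-201 rose from 0.826 to 2.06 FPKM to 8.11 to 14.9 FPKM, and the retained-intron transcript Lgr5-202 from 0.0542 to 0.545 FPKM to 1.83 to 4.55 FPKM. For PZH + AOM/DSS against AOM/DSS, 4 were lower by the study's criteria, Smoc2-201, Lgr5-201, Lgr5-202 and Vangl2-201, where 1.76% of 41170 transcripts were.

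Prom1 and Vangl2 show where a single transcript misleads. The leading Prom1 transcript was Prom1-207 in 9 mice, Prom1-203 in 9 and Prom1-202 in 2, and the share of Prom1-203 ranged from 1.06% to 84.0% of the gene. Prom1-203 led in 4 of 5 AOM/DSS mice, with a median share of 70.6%, and in 2 Control, 1 PZH and 2 PZH + AOM/DSS mice, with medians of 27.4%, 34.1% and 23.5%, and its range in every group was wide, from 1.06% to 84.0% in AOM/DSS mice and from 1.45% to 66.0% in Control mice. The difference in shares was not tested. Vangl2-201 had a listed value of 0 in 3 of 5 Control and 0 of 5 AOM/DSS mice, while Vangl2-202 averaged 0.448 FPKM in Control and 0.00353 FPKM in AOM/DSS mice. Only the sum of Vangl2, at 0.628 to 1.04 FPKM in Control mice, was steady.

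**Figure D5:**
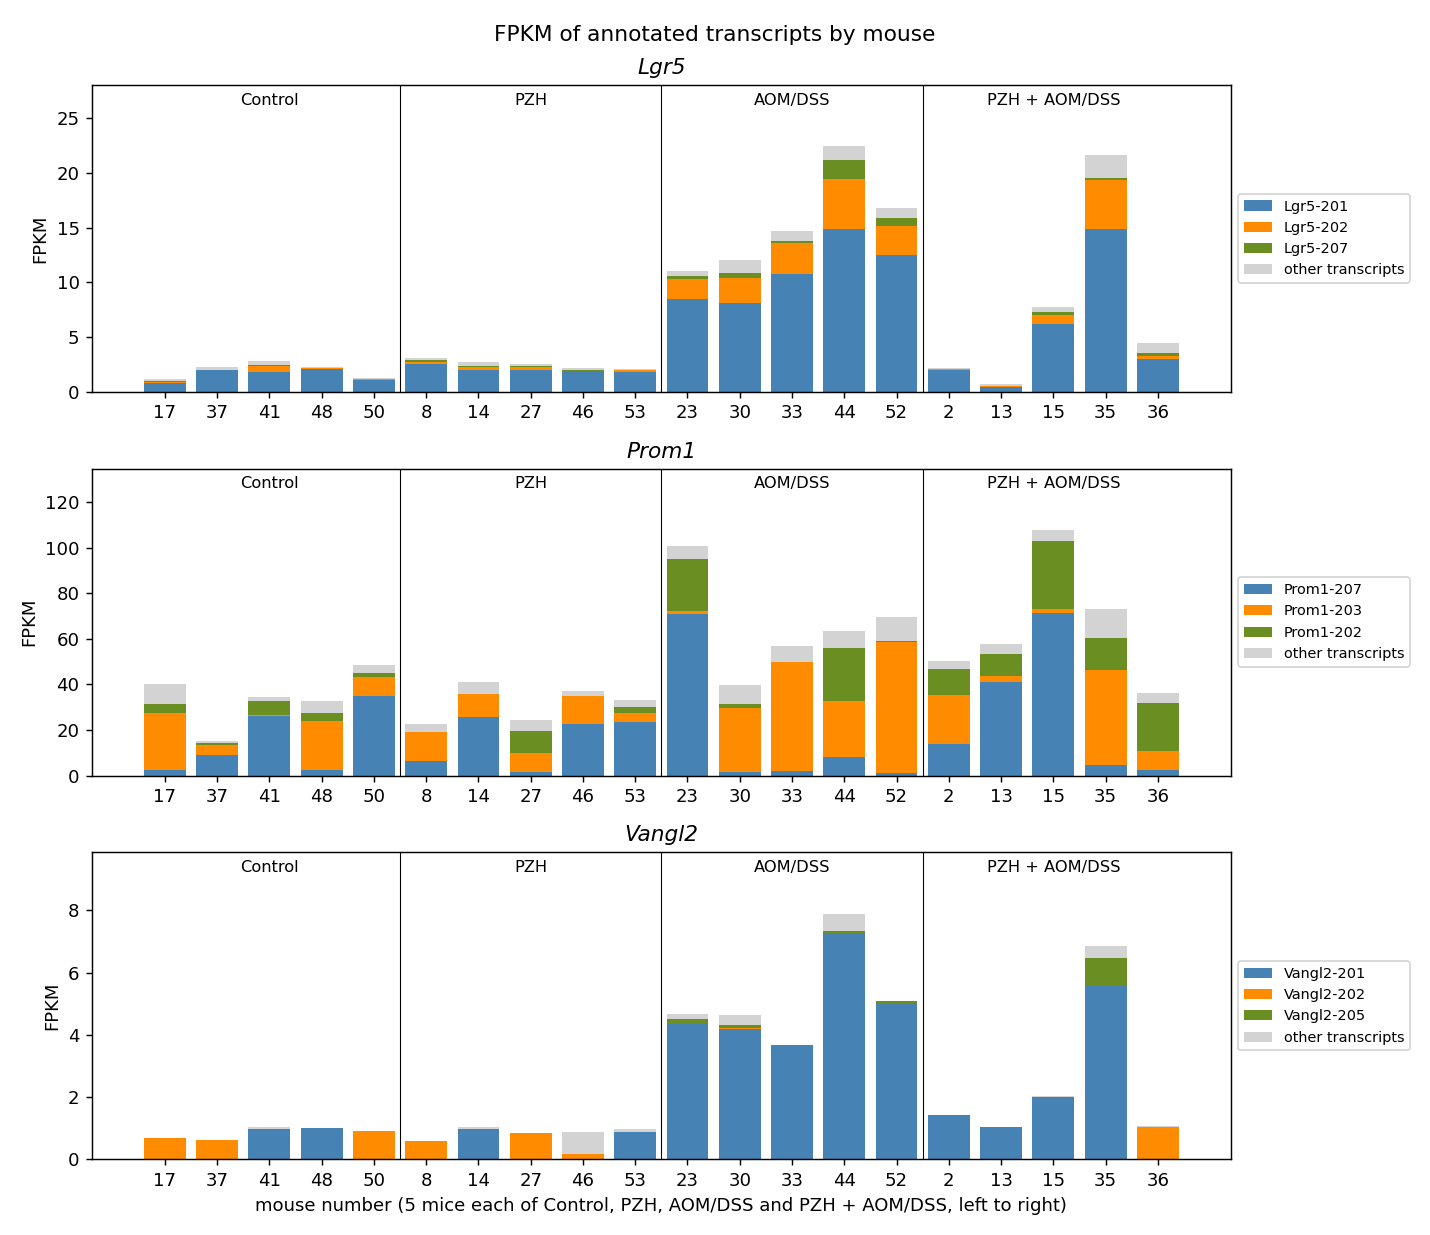
FPKM (vertical axes) of the annotated transcripts of Lgr5, Prom1 and Vangl2 in each of the 20 mice (horizontal axis, mouse number, groups separated by lines), stacked, with the 3 most abundant transcripts coloured and the rest in grey. Lgr5-201 makes up most of Lgr5 in every group, whereas the leading Prom1 transcript changes between mice of the same group.

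The genes that rose varied together between mice to unequal degrees. After removing the group means from log2(FPKM + 1), Pearson's r over the 20 mice was 0.89 between Ascl2 and Vangl2, 0.81 between Lgr5 and Vangl2, 0.81 between Ascl2 and Ephb3 and 0.73 between Lgr5 and Ascl2. Smoc2 shared less of this, with r of 0.47 to Lgr5 and 0.29 to Ascl2, and Lrig1 had r of -0.04 to Lgr5. Without mouse 35, over the other 19 mice, r was 0.82 between Ascl2 and Vangl2, 0.52 between Lgr5 and Vangl2, 0.65 between Ascl2 and Ephb3, 0.46 between Lgr5 and Ascl2, 0.13 between Lgr5 and Smoc2 and -0.13 between Ascl2 and Smoc2. These are descriptions of mice that share depth, scaling and cell makeup within a library. Mouse 44 held the highest value of its group for 6 of the 10 genes, and mouse 35 for 8 of 10.

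Among 14140 genes with a mean of at least 1 FPKM, those most like Lgr5 over the 20 mice were Fam89a, Cbx3-ps8, Mdfi, Habp2 and Sox4, with r of 0.97 to 0.96. With the group means removed they were Tubb4a, Sp5, Mmp7, Wif1 and Defa20, with r of 0.94 to 0.92, where Sp5 and Wif1 are Wnt pathway genes and Mmp7 and Defa20 are Paneth cell genes. Ascl2 was most like Lfng, Zfp664, Rbm15b, Hes6 and Zfp553 (r of 0.97 to 0.94), and like Lfng, Cdc42ep1, Rbm15b, Zfp664 and Hes6 with the group means removed (r of 0.94 to 0.90). Lfng and Hes6 belong to the Notch pathway and its relatives. Smoc2 was most like Prune1, Tbcel, Dach1, Arl14 and Ascl4 (r of 0.89 to 0.87), and like Cxadr, Chtf8, Aaed1, Fbxw9 and Sdhaf3 with the group means removed (r of 0.79 to 0.72). For Olfm4 they were Arl4c, Mmp12, Dyrk3, Rnase1 and Tnfrsf9 (r of 0.94), and Lyz1, Cxcr2, Lilrb4a, Rnase1 and Plekhs1 with the group means removed (r of 0.87 to 0.85), on values of 10 fragments or fewer. Without mouse 35 and with the group means removed, r of the same 5 genes each was 0.83 to 0.88 for Lgr5, 0.81 to 0.88 for Ascl2, 0.59 to 0.71 for Smoc2 and 0.61 to 0.82 for Olfm4. The measure says nothing of shared function or control.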

How the data were processed

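Colon RNA of 20 mice was sequenced after rRNA removal and, according to the paper, a poly(A) isolation step. The authors aligned reads to mm10 with HISAT2 and estimated each transcript with StringTie, and the deposited values are FPKM per transcript, 118434 per mouse, without counts. The paper called differences with DESeq, whereas the submitters' processing notes name limma. Of these transcripts, 22252 were assembled ones without a gene name (12.1 to 14.85% of FPKM) and were left out, as were 150 Ensembl transcripts not in GENCODE M21. FPKM was summed per gene, and log2(FPKM + 1) was compared with limma 3.58.1 (R 4.3.3, intensity trend, no covariates) among genes of at least 0.5 FPKM in 5 mice (of 10 in a pair, of 20 for the interaction), with Benjamini-Hochberg adjustment over all genes tested. The fit was tested on simulated data. Depth was estimated from the steps of FPKM times transcript length, 40.63 to 45.73% of low values falling on whole steps, so it is approximate, and counts were not recovered. Floors and fragment numbers cover counting error only. Mice are separate animals, and no 2 files were alike (highest Pearson r 0.95 across genes).

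The members and all gene lists were chosen with earlier results of these data known. Named were the 10 members, the 3 called genes of each list with the largest difference between AOM/DSS and Control, the R-spondins, Efnb1 and Efnb2, and the 5 genes most like Lgr5, Ascl2, Smoc2 and Olfm4; a few others (Krt13, Epcam, Lgr4, Lrig3, Myb, Hells, Cdx1) are named to read a count or a limit, and 1 gene that the rule names is not reported here. Alternatives were median-of-ratios scaling, scaling to the epithelial list, other filters, a pseudocount of 0.1, 1 fit of all 20 mice, a single transcript per gene and leaving out each mouse. Promoter windows are RefSeq's (GRCm38.p6).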

Additional observations from a re-analysis of the deposited data

Results flagged for a closer look

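Within each group of 5 mice, the gap between the most extreme mouse and its neighbour was compared with the whole range of the group (Dixon's test, critical value 0.71). Of 40 such groups, 4 held an outlying mouse, where chance gives about 1 in 20. In 3 of them it was PZH + AOM/DSS mouse 35, at 16.6 FPKM for Ascl2, 23.6 FPKM for Smoc2 and 6.85 FPKM for Vangl2, with gaps of 0.823, 0.712 and 0.828 of the range. The fourth was PZH + AOM/DSS mouse 2 for Lrig1, at 46.5 FPKM with a gap of 0.845, and this mouse was not outlying for any other of the 10 genes. The labels give no batch, date or tumour number that could be set beside mouse 35.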

How the results depend on the processing

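In AOM/DSS against Control, the call of Lgr5 held under every alternative run, and those of Ascl2, Smoc2, Cdca7 and Vangl2 under all but scaling to the epithelial list. That list holds the erratic Epcam and Krt8, and the scaling left 1 of the members called, Lgr5, and 2.12% of all genes. Prom1 also lost its call under median-of-ratios scaling (adjusted P = 0.0762, limma), without a filter (0.0813), with a single transcript per gene (0.734) and in 8 of 10 settings that leave out 1 mouse. Median-of-ratios scaling moved the split of all calls from 2596 higher and 1143 lower to 1936 higher and 1587 lower, and the median of all genes from 0.09 to 0.01 on the log2 scale; scaling to the epithelial list moved it to -0.43, and without Epcam and Krt8 to 0.30. The settings without Epcam and Krt8, without Control mice 17 and 50, the counts of all genes, correlations and spread without mouse 35, and the list counts without Lgr6, Sp5 and Mmp7 were chosen after seeing the data. Depth limits Olfm4, which without the filter had an adjusted P of 0.00385 (limma) in AOM/DSS against Control on at most 8 fragments.

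Changes of direction concerned values that had not passed the adjusted test, apart from Prom1 in AOM/DSS against Control. Some were not near 0: before scaling to the epithelial list, Ephb3 in AOM/DSS against Control was 0.40, Ascl2, Cdca7 and Smoc2 in PZH + AOM/DSS against Control were 0.62, 0.43 and 0.37, and Cdca7 and Ephb2 against PZH were 0.49 and 0.44. With a single transcript per gene, Prom1 had log2 differences of -0.63 (AOM/DSS against Control), 0.30 (PZH against Control) and 1.24 (PZH + AOM/DSS against AOM/DSS). Relative to the epithelial list, the values against Control were -0.25 for Ephb2 and -0.13 for Ephb3 in AOM/DSS mice, -0.065 for Ascl2, -0.10 for Ephb3 and -0.18 for Vangl2 in PZH mice, and -0.063 for Ascl2, -0.31 for Smoc2, -0.53 for Lrig1, -0.33 for Ephb2, -0.46 for Ephb3 and -0.26 for Cdca7 in PZH + AOM/DSS mice. For PZH + AOM/DSS against PZH they were -0.34 for Smoc2, -0.054 for Ephb2, -0.37 for Ephb3 and -0.0050 for Cdca7, and against AOM/DSS -0.078 for Ephb2. Without Epcam and Krt8 in the list, values were 0.063 for Lrig1 (AOM/DSS against Control), -0.055 for Vangl2 (PZH against Control), -0.038 for Ephb2 (PZH + AOM/DSS against AOM/DSS), 0.031 for Lrig1 (PZH + AOM/DSS against PZH), and -0.058 for Prom1 and -0.031 for Lrig1 in the interaction. Median-of-ratios scaling gave -0.0023 for Vangl2 in PZH against Control. Without Control mice 17 and 50, PZH against Control gave -0.13 for Ascl2, 0.24 for Prom1 and -0.022 for Vangl2, Lrig1 in PZH + AOM/DSS against Control gave -0.049, and Prom1 in the interaction -0.29. The causes were not tested.

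By the study's criteria, 0 of the 9 genes differed in PZH + AOM/DSS against Control and against PZH, where 3.53% and 3.13% of all genes did. A pseudocount of 0.1 gave 1 in both (6.64% and 5.82% of all genes). Leaving out Control mice 17 and 50 gave 1 in the former (3.59%). In the latter, 1 differed with a single transcript per gene or relative to the epithelial list without Epcam and Krt8 (3.77% each). Leaving out 1 mouse at a time, the adjusted count ranged from 5 to 6 in AOM/DSS against Control, from 0 to 3 in PZH + AOM/DSS against AOM/DSS (3 without mouse 35), from 0 to 3 in the interaction (3 without mouse 35) and from 0 to 1 in PZH + AOM/DSS against PZH (1 without mouse 36). The count by the study's criteria ranged from 4 to 5, from 1 to 4 (1 without AOM/DSS mouse 44 or PZH + AOM/DSS mouse 2 or 13), from 2 to 4 and from 0 to 1 in these comparisons, and from 0 to 1 in PZH + AOM/DSS against Control. Single values changed sign in the ranges -0.32 to 0.082 (Prom1), -0.043 to 0.058 (Vangl2) and -0.16 to 0.034 (Ephb2) for PZH against Control, -0.26 to 0.13 (Prom1) and -0.094 to 0.20 (Ephb2) for PZH + AOM/DSS against AOM/DSS, -0.083 to 0.34 (Smoc2) and -0.0024 to 0.21 (Ephb3) for PZH + AOM/DSS against PZH, and -0.20 to 0.26 (Prom1), -0.084 to 0.15 (Lrig1) and -0.0074 to 0.29 (Ephb2) for the interaction.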
